A study of Homo sapiens with 4 samples.

Results

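Imprinted gene loci were examined for CHD5, a chromodomain helicase that remodels nucleosomes, and for H3K27me3, the histone mark deposited by the Polycomb repressive complex, in differentiated SH-SY5Y cells. SH-SY5Y is a human neuroblastoma line that takes on neuron-like features in retinoic acid. The members are 10 genes, H19, KCNQ1OT1, CDKN1C, DLK1, MEG3, SNRPN, PEG10, MEST, PEG3 and GNAS, each with its hg19 gene span, and every deposited region that reached within 20 kb of a span was taken. This gave 16 of the 32543 CHD5 peaks and 4 of the 257073 H3K27me3 regions. Regions were taken by gene position, not by score, but the genes were picked with earlier results of these data known. The spans are rounded to 1 kb, so distances to a gene's 5′ end carry that rounding. RefSeq gene lengths differed from the spans by 0.442 to 2.09 kb, and by 30.7 kb at KCNQ1OT1. Distances therefore hold for the 5′ end of the span, and the annotated end can lie elsewhere.

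All 4 libraries of the study came from SH-SY5Y cells held in 10 uM retinoic acid for 8 days, each the only one of its group. The CHD5 library is a streptavidin pull-down from cells expressing FBio-CHD5, a tagged CHD5 brought into the line, so it reports on the introduced protein. The H3K27me3 library was precipitated with an antibody from the same FBio-CHD5 cells. A streptavidin pull-down from cells expressing FBio-Ctrl and an input DNA library were also made, and region lists for them were not used here. The 2 lists used hold positions and a score from the authors' peak caller, with no read counts, so the number of reads behind a region is not known. Since each group is a single library, no value has a replicate error and no groups were tested against each other. Every value below is a description of these 2 lists, and the intervals cover counting error only.

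Imprinted genes are transcribed mainly from the copy inherited from 1 parent, chosen by DNA methylation laid down in egg or sperm at control regions rich in CpG, the dinucleotide that is methylated. Several clusters pair a long non-coding RNA made from one parental copy with protein-coding genes expressed from the other. In mouse, Polycomb marks parts of some imprinted clusters on the silent copy. Peak lists from unphased libraries cannot tell the 2 parental copies apart, so each region below belongs to either copy or to both.

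CHD5 peaks lay at 7 of the 10 loci, and H3K27me3 regions at 2 of the 10. H19 had 6 CHD5 peaks, GNAS 4 and PEG10 2, which is 12 of the 16, while KCNQ1OT1, CDKN1C, DLK1 and MEG3 had 1 each. SNRPN, MEST and PEG3 had 0. The H3K27me3 regions were split between DLK1 and SNRPN, with 2 each, and DLK1 was the single locus with both. To set these counts against the genome, both lists were counted in 45239 tiles of 66.5 kb, the median length of a gene span with its flanks. A CHD5 peak lay at 70% of the 10 loci (Wilson 95% interval 39.7% to 89.2%), against 38.7% of tiles. An H3K27me3 region lay at 20% of the loci (5.67% to 50.98%), against 32.7% of tiles. Both lay at 1 of the 10 loci, against 7.13% of tiles. At 10 loci these differences are near or within counting error. The intervals take the loci as independent, though H19, KCNQ1OT1 and CDKN1C share a cluster, as do DLK1 and MEG3. Tiles are not chosen for genes and take in assembly gaps, so these shares are no measure of gene loci at large.

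The windows, each a gene span with its flanks, differed in length. They ran from 43 kb at CDKN1C to 196 kb at SNRPN, the longest, which had 0 CHD5 peaks. Tiles of those 2 lengths held a CHD5 peak in 29.7% and 62.7% of cases. CHD5 was listed at 7 loci, against 4.08 when the tile share at each locus's own length is added up. H3K27me3 was listed at 2 loci, against 3.44 by the same sum. Over the 811 kb of windows together, CHD5 peaks came to 19.7 per Mb, against 10.8 per Mb over both lists' extent. Without H19 the windows had 10 peaks, or 13.04 per Mb. H3K27me3 regions came to 4.93 per Mb in the windows, against 85.4 per Mb in all. They covered 0.160% of the window bases, against 2.89% in all, where CHD5 peaks covered 3.95% and 2.15%. H3K27me3 regions come in groups: joined across gaps of up to 3 kb, all 257073 formed 38537 domains, and the 4 at the loci formed 2. The rate per Mb and the covered share therefore weigh wide domains heavily, which the count of loci does not.

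Among the non-coding RNAs, H19 held the densest group of CHD5 peaks. H19 is a maternally expressed long non-coding RNA that shares a control region with IGF2, the paternally expressed growth factor gene upstream of it. One peak, on chromosome 11 from 2019050 to 2020314 with a score of 87.5, crossed the 5′ end of the span. The other 5 lay past the 3′ end, on the side away from IGF2. On that side the RefSeq annotation lists MRPL23-AS1 and LINC01219, and it lists MRPL23 as overlapping H19. Nearest to the H19 span was a peak from 2011381 to 2013887 with a score of 198, then one from 2008560 to 2010684 with 367 and one from 2003154 to 2005356 with 158. The remaining peaks ran from 1999481 to 2002692, scoring 326, and from 1997092 to 1998012, scoring 62.3. So 4 of the 6 scored above the list's median of 117, all of them past the 3′ end, and the peak at the 5′ end scored below it.

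The 6 peaks at H19 covered 12.2 kb of a stretch of 23.2 kb, or 52.7%, with gaps between 461 and 5162 bp. On the upstream side, toward IGF2, the next CHD5 peak lay 78.1 kb away. On the other side the run went on beyond the 20-kb limit, with a peak from 1989922 to 1991408 scoring 185 and one from 1974783 to 1977880 scoring 733, at 24.6 and 38.1 kb from the span. Of 68376 genome tiles of 44 kb, the length of the H19 window, 0.297% held 6 or more CHD5 peaks. H19 was singled out after its count was seen, so that share describes its place in the list only. No H3K27me3 region lay in the window, and the nearest, of 196 bp and scoring 71.5, lay 47.3 kb from the span on the IGF2 side.

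**Figure D1:**
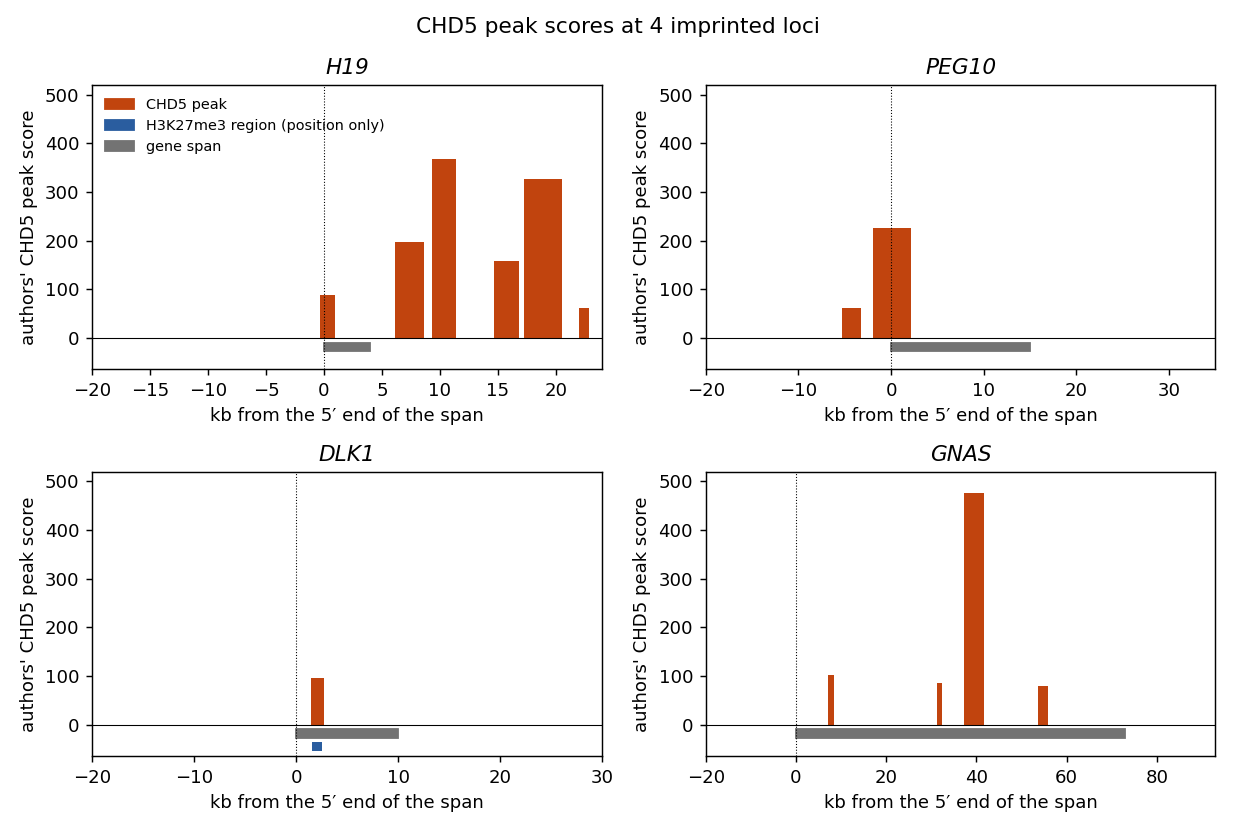
CHD5 peaks at H19, PEG10, DLK1 and GNAS, with distance from the 5′ end of the gene span in kb on the horizontal axis and the authors' CHD5 score as bar height; lower bars mark H3K27me3 regions by position alone. At H19 the high bars stand past the 3′ end of the gene, at PEG10 a bar of 226 stands across the 5′ end, and at GNAS a bar of 476 stands inside the gene.

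The other 2 non-coding RNAs each had a single weak CHD5 peak inside the transcribed span. KCNQ1OT1 runs antisense to KCNQ1 from the paternal copy, and in mouse its counterpart is needed to silence CDKN1C and its neighbours. Its peak lay from 2696918 to 2698684, 23.3 kb past the 5′ end of the span, and its score of 52.04 was higher than that of 2.51% of the list. The RefSeq gene is 30.7 kb longer than this span. MEG3 is expressed from the maternal copy of the cluster it forms with DLK1. Its peak, on chromosome 14 from 101308755 to 101309663, lay 16.8 kb past the 5′ end and scored 54.6, higher than 5.60% of the list. Neither span had an H3K27me3 region within 20 kb, the nearest lying 227 kb from KCNQ1OT1 and 97.4 kb from MEG3. These distances were reached by 27.6% and 44.2% of the 66.5-kb tiles. The spans measure 61 and 36 kb, and a shorter stretch tends to lie farther from a region. Tiles were not matched to span length here, so these shares are only a rough guide.

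Promoter sequences from RefSeq (GRCh38.p14) are shown for 3 members that differ in what lay at their 5′ end. H19 had a CHD5 peak across the 5′ end of its span, MEG3 had its nearest peak inside the gene, and MEST had its nearest peak 43.9 kb away. Each runs from 250 bases before to 50 after the annotated start, with CpG in capitals.
H19 (chr11:2001217-2001516, minus strand): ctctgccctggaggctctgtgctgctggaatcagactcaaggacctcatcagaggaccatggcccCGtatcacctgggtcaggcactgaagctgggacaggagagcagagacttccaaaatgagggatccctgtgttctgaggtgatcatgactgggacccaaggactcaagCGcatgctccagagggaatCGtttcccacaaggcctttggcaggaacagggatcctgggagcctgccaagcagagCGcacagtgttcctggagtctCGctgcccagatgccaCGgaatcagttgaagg
MEG3 (chr14:100825858-100826157, plus strand): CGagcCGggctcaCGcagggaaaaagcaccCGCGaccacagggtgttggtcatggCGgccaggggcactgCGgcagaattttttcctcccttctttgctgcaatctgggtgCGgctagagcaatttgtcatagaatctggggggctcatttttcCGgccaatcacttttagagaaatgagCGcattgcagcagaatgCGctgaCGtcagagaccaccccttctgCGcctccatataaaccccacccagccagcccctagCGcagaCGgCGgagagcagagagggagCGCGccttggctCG
MEST (chr7:130485925-130486224, plus strand): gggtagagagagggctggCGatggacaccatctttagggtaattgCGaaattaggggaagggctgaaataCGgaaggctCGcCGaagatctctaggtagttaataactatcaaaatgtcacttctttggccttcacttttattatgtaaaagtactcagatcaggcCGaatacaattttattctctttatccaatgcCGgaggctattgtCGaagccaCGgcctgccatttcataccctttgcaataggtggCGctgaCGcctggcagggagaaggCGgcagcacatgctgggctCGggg
The H19 promoter held 6 CpG, MEG3 19 and MEST 13, beside a median of 14 over 35116 promoters of this length. At least as many as H19 were found in 66.3% of all promoters, as many as MEG3 in 42.9% and as many as MEST in 51.7%. The RefSeq H19 gene is 2.09 kb longer than the span used here, and the builds differ, so this promoter was not placed against the peak. For MEG3 and MEST the RefSeq length and the span differed by 1.08 and 0.709 kb. The table also lists SNRPN and GNAS with a start 32.9 and 48.7 kb inside the gene, which are not shown. KCNQ1OT1, CDKN1C, DLK1, PEG10 and PEG3 are named only.

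Of the protein-coding members, DLK1 was the one where CHD5 and H3K27me3 met. DLK1 encodes a transmembrane relative of the Notch ligands, expressed from the paternal copy and known as a marker of neuroendocrine tumours. Its CHD5 peak ran from 101193496 to 101194780 on chromosome 14, 1.495 to 2.78 kb past the 5′ end, and scored 96.9, below the list's median. The H3K27me3 regions ran from 101193602 to 101193913, scoring 143, and from 101193963 to 101194576, scoring 326. Within the H3K27me3 list, whose median is 84.6, the second scored higher than 92.7% of regions. The scores of the 2 lists are not on a common scale.

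Both H3K27me3 regions at DLK1 lay wholly inside the CHD5 peak. They stood 49 bp apart and, joined across gaps of up to 3 kb, formed a domain of 975 bp that began 106 bp after the CHD5 peak's start and ended 204 bp before its end. H3K27me3 thus took up 72.1% of the peak, against a median of 29.3% over all 712 CHD5 peaks that touched the mark. Of the 4 H3K27me3 regions at the loci, 2 were touched by CHD5, beside 0.503% of the whole list. Both belong to this single domain and peak, so they count a single overlap and the shares cannot be compared. Of the 712 CHD5 peaks that touched the mark, 138 had at least as large a share inside it, and 140 CHD5 peaks held a whole joined domain. The domain stood alone: the next H3K27me3 region lay 566 kb away on one side and 539 kb on the other. Among joined domains, 44.1% were narrower. Over the 16 CHD5 peaks of all the loci, this single overlap made 6.25% (Wilson 95% interval 1.11% to 28.3%), beside 2.19% of the whole list, a difference that 16 peaks cannot resolve. The interval takes the peaks as independent, which peaks of the same locus are not.

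In the 90 kb between DLK1 and MEG3, where the cluster's control region lies, 2 CHD5 peaks and 0 H3K27me3 regions were listed. Where the 2 peaks stand relative to that control region was not analysed. The peaks at DLK1 and MEG3 themselves scored 96.9 and 54.6, against 183 and 570 for these 2, which were outside the 20-kb limit of either gene. Upstream of DLK1, between 32.9 and 48.9 kb away, 4 more peaks scored from 55.8 to 750. Downstream of MEG3, 4 peaks began between 23.2 and 42.9 kb from the span and scored from 54.8 to 182. The DLK1 and MEG3 peaks were thus not the high-scoring ones of their cluster. Over all loci, the CHD5 peak farthest from a span within the 20-kb limit was the one scoring 62.3 at H19, 17.99 kb away, and the first beyond the limit was the one 23.2 kb from MEG3.

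CDKN1C encodes p57, an inhibitor of cyclin-dependent kinases that is expressed from the maternal copy. It had 1 CHD5 peak, on chromosome 11 from 2907284 to 2908212, from 0.283 to 1.21 kb upstream of the 5′ end. The peak was narrow, with 929 bp, and scored 73.3, higher than 24.05% of the list. Its nearest H3K27me3 regions, 4 in a domain of 3015 bp from 2948710 to 2951724, began 41.7 kb upstream, on the side where RefSeq lists PHLDA2, another imprinted gene of this cluster. Those regions were the closest to any of the 8 loci without H3K27me3, and the first outside the 20-kb limit.

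Across the chromosome 11 cluster as a whole, from the H19 window to the CDKN1C window, 24 CHD5 peaks and 13 H3K27me3 regions were listed over 931 kb. No CHD5 peak there overlapped the mark, beside 2.19% of the whole list, a share from which 24 peaks cannot be told apart. The cluster had 25.8 CHD5 peaks per Mb, against 8.93 per Mb on chromosome 11. That chromosome had 44.4 H3K27me3 regions per Mb. The 641 kb between H19 and KCNQ1OT1 held 15 of the peaks, the one across the 5′ end of H19 included, with scores from 50.1 to 1123, and all 13 of the H3K27me3 regions. The 182 kb between KCNQ1OT1 and CDKN1C held 2 peaks, scoring 82.3 and 265, and 0 H3K27me3 regions.

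PEG10 is a paternally expressed gene derived from a retrotransposon, and its neighbour SGCE starts next to it in the opposite direction. A CHD5 peak on chromosome 7 from 94283045 to 94287137 covered the 5′ end of the PEG10 span, from 1.96 kb before it to 2.14 kb after it. At 4093 bp it was wider than 94.5% of the list, and it scored 226, higher than 76.4%. A second peak, from 94279705 to 94281734, lay on the SGCE side and scored 60.4, with 1310 bp between the peaks. In 15.1% of tiles of 55 kb, the length of this window, 2 or more CHD5 peaks were found. PEG10 and GNAS, like H19, were given such a share after their counts were seen, so it describes their place in the list only. The nearest H3K27me3 region was 53.3 kb from the span.

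GNAS encodes the stimulatory G protein alpha subunit and has several promoters with differing parental expression, the antisense RNA GNAS-AS1 among their products. All 4 of its CHD5 peaks lay inside the span on chromosome 20. The first ran from 57421210 to 57422364, 7.21 kb past the 5′ end, with a score of 102, and the second from 57445319 to 57446367 with 85.2. The third, from 57451328 to 57455756, was the widest and highest of all 16, with 4429 bp and a score of 476, higher than 93.5% of the list. The last ran from 57467631 to 57469823 and scored 78.9. Gaps between them ran from 4.96 to 23.0 kb, and 10.3% of tiles of 113 kb, the length of this window, held 4 or more peaks. No H3K27me3 region lay within 72.1 kb of GNAS.

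**Figure D2:**
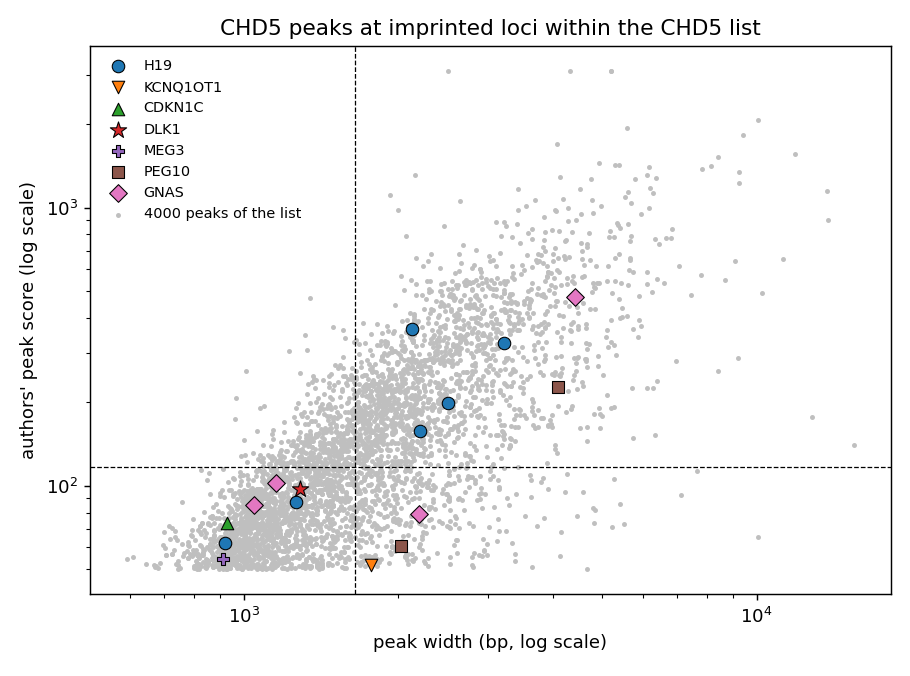
Peak width in bp against the authors' score, both on log scales, for the 16 CHD5 peaks at imprinted loci (symbols by gene) and 4000 peaks drawn from the whole CHD5 list (small points); dashed lines are the list's median width of 1647 bp and median score of 117. The 6 symbols above the median score belong to H19, PEG10 and GNAS.

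By rank, the 16 peaks scored higher than between 2.51% and 93.5% of the list. Their scores ran from 52.04 to 476 with a median of 92.2, against 117 over all CHD5 peaks, and from 909 to 4429 bp in width with a median of 1898.5 bp, against 1647 bp. Above the list's median score were 6 of the 16, and above its median width 9 of the 16. In the lowest quartile of scores were 5 and in the highest 4, those at 226 or more. At or above the median score, 3 of the 10 loci kept a CHD5 peak, H19, PEG10 and GNAS, beside 24.1% of tiles. The other 4 loci with CHD5 were listed through a single peak below the median score.

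Within 2 kb of the 5′ end of the span, CHD5 peaks were listed at 4 of the 10 loci. H19 and PEG10 had a peak across it, CDKN1C had one 0.283 kb before it and DLK1 one 1.495 kb after it. H19 and CDKN1C are expressed from the maternal copy, PEG10 and DLK1 from the paternal copy. Scores there were 87.5 at H19, 226 at PEG10, 73.3 at CDKN1C and 96.9 at DLK1. The same share over all genes was not analysed here, for want of an hg19 annotation. The count therefore cannot show a preference for 5′ ends. Each gene was given a single 5′ end, that of its span, also at GNAS with its several promoters. RefSeq lengths differed from the spans by 2.09 kb at H19, 1.63 kb at PEG10, 1.33 kb at DLK1 and 0.442 kb at CDKN1C. Whether these peaks lie at the annotated starts was not analysed.

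The 3 loci without a CHD5 peak differed in how far away CHD5 began. MEST, a paternally expressed gene of the hydrolase fold family, had a peak of score 102 upstream, 43.9 kb from the span, and 42.3% of tiles lay at least as far from CHD5. SNRPN, the paternally expressed splicing factor gene of the Prader-Willi region, had its nearest peak 447 kb away, a distance reached by 13.8% of tiles. PEG3, a paternally expressed zinc finger gene, had no CHD5 peak within 500 kb on either side, and its nearest lay 538 kb away, a distance reached by 12.1% of tiles. Chromosomes 15 and 19, which hold them, had 13.6 and 12.97 CHD5 peaks per Mb, against 10.8 per Mb in all. The spans of MEST, SNRPN and PEG3 measure 21, 156 and 32 kb, against tiles of 66.5 kb. The shares of tiles at these distances are therefore not like for like.

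SNRPN carried the other H3K27me3 regions. They lay on chromosome 15 from 25097083 to 25097252 and from 25097391 to 25097590, 29.1 to 29.6 kb past the 5′ end, 138 bp apart, and summed to 370 bp. Their scores of 53.1 and 50.9 were higher than 9.09% and 2.70% of the H3K27me3 list, close to the lowest listed score of 50. No locus of the 10 held an H3K27me3 domain of 1 kb or more, but only 2 domains were listed at them. Of all 38537 joined domains, 17087 were under 1 kb. At MEST and PEG3 the nearest regions lay 116 and 167 kb away. These distances were reached by 41.0% and 34.0% of the tiles, which are longer than both spans.

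**Figure D3:**
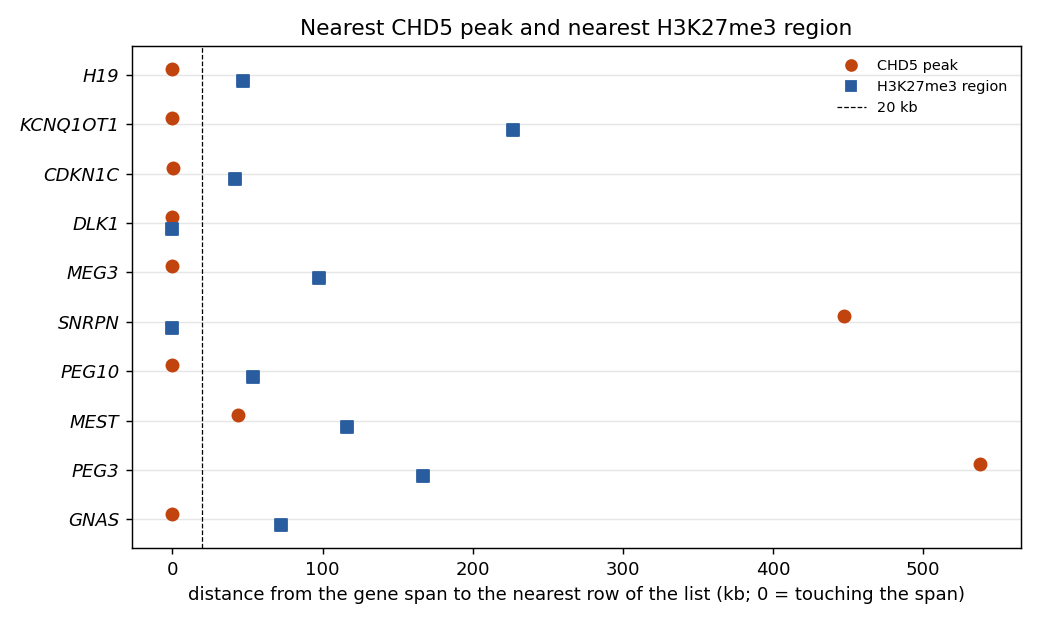
Distance in kb from each of the 10 gene spans to the nearest CHD5 peak (circles) and the nearest H3K27me3 region (squares), with 0 for a region touching the span and a dashed line at 20 kb. SNRPN and PEG3 are 447 and 538 kb from CHD5, and KCNQ1OT1 is the farthest from H3K27me3, at 227 kb.

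Over all 16 CHD5 peaks, the median distance to the nearest H3K27me3 region was 67.7 kb with quartiles of 55.8 and 105 kb, against a median of 166 kb over all CHD5 peaks with quartiles of 61.2 and 348 kb. Without the 6 peaks at H19, which share their neighbourhood, the median was 91.4 kb. The farthest was the peak inside KCNQ1OT1, 250.025 kb from the mark.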

How the data were processed

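Chromatin immunoprecipitation sequencing was done on SH-SY5Y cells, and lists of enriched regions for the CHD5 pull-down and the H3K27me3 precipitation were used. The file headers give MACS as the peak caller and 1 library for each list, and the submitters' processing notes give hg19 as the build. For the caller's version, its threshold, any control library and the read mapping, the details are not given in the sources used. A score per region, at least 50 and on an unstated scale, was deposited by the authors with each list, and it was compared within its own list only. A call without a matched control can also list places that shear or capture well, and narrow calling splits a broad mark into short regions.

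Regions reaching within 20 kb of the gene spans were kept, and overlap meant at least 1 shared bp. H3K27me3 regions were joined across gaps of up to 3 kb. Tiles were laid end to end from the first to the last listed base of each chromosome. Assembly gaps were not taken out, so tile shares and rates per Mb over all include sequence where no region could be listed. Named genes are all 10 members, with each CHD5 peak in their windows. Gene orientation is textbook knowledge, and it matched RefSeq for the 5 members with a RefSeq promoter. The other 5 have none in the table used. Counting routines were tested on simulated data against bedtools 2.31.1. Python 3.11.15 with numpy 2.4.6, scipy 1.17.1 and matplotlib 3.10.9 was used. Members and lists were chosen with earlier results of these data known. Without an hg19 annotation, other imprinted genes and all genes were not counted. The CHD5 peaks outside the windows at DLK1, MEG3, H19 and between members, and the chromosome 11 and 14 clusters, were described after their values were seen. Alternatives covered the flank, score limits, overlap, joining and tiles.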

Additional observations from a re-analysis of the deposited data

How the results depend on the processing

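No paired analysis was possible because each group has 1 library. Depth is unknown, so regions too weak to be called cannot be told from absent ones. The number of CHD5 peaks depended on the flank: 9 peaks with no flank, 31 with 50 kb and 40 with 100 kb, against 16 with 20 kb. H3K27me3 regions numbered 10 with 50 kb and 14 with 100 kb, against 4, and lay at 4 and 7 loci, against 2. With 100 kb, the 2 regions at MEG3 are those at DLK1, so the 7 loci count them at both genes. Loci with CHD5 numbered 6, 7, 8 and 8 with flanks of 0, 10, 50 and 100 kb. H3K27me3 covered 0.315% of bases with no flank, 0.212% with 10 kb, 0.238% with 50 kb and 0.184% with 100 kb, against 0.160%. With CHD5 scores at or above the median, 6 peaks at 3 loci were left and 0 overlapped H3K27me3. With H3K27me3 scores at or above the median, 2 regions at 1 locus were left, covering 0.114%. Unjoined, the 2 domains were 4 regions. The count of 1 CHD5 peak overlapping H3K27me3 stayed at 1 under the 4 other flanks, overlap of at least 100 bp or 0.5 of the peak, domains joined across 3 kb and the H3K27me3 score limit. Tiles of the shortest window held CHD5 in 29.7% and H3K27me3 in 27.9% of cases, and those of the longest in 62.7% and 49.7%. CHD5 lay in 41.9% of tiles on the members' chromosomes, and among tiles with a region of either list the shares were 60.3% and 50.8%. The flank and score limits change the bases or regions counted by construction. For the tiles on the members' chromosomes the cause was not tested.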
